A study of Mus musculus with 2 samples.

Results

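The miR-15/16 family and its X chromosome relatives were described in short RNA libraries of the mouse hippocampus. The 9 miRNA genes were taken by Ensembl identifier through GENCODE M21, out of 2202 miRNA genes in each table: Mir15a, Mir15b, Mir16-1, Mir16-2, Mir195a, Mir497, Mir322, Mir503 and Mir351. They lie in 4 genomic clusters. The tissue came from female B6CASTF1/J mice, the first-generation cross of C57BL/6J and CAST/EiJ, aged 25 days, and no treatment is named in the labels. There are 2 libraries in a single group, biological replicates 2 and 1. They have different tissue sample identifiers and the same donor identifier in the labels, so it is not stated whether they came from separate animals or litters. Which hippocampal layer was taken is not named.

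A microRNA guides Argonaute proteins to messenger RNAs, mainly through its seed, bases 2 to 8 from the 5′ end, and lowers the stability and translation of those messages. The miR-15/16 family is best known for restraining the cell cycle and cell survival, through targets such as the D and E cyclins, Wee1, Cdc25a and Bcl2. Loss of the human MIR15A and MIR16-1 locus is frequent in chronic lymphocytic leukaemia, and in the mouse heart the Mir195a locus rises after birth as cardiomyocytes leave the cell cycle. In brain, family members are found in neurons, glia and vessels.

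The mature 5′ arms are shown because they define the family and decide which reads can be counted. The sequences are RefSeq's for GRCm38.p6, the assembly also called mm10, and all 9 genes had an entry. Capitals mark the seed.
miR-15a-5p: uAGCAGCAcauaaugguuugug
miR-15b-5p: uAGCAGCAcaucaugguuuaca
miR-16-5p, from both Mir16-1 and Mir16-2: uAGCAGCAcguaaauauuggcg
miR-195a-5p: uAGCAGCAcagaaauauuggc
miR-497a-5p: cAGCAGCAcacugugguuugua
miR-322-5p: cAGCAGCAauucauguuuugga
miR-503-5p: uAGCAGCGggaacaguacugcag
miR-351-5p: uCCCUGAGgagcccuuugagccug
miR-125a-5p, shown for comparison with miR-351-5p: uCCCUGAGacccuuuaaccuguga

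The same seed, AGCAGCA, stood in 7 of the 9 genes. The seed of miR-503-5p, AGCAGCG, was found in 1 gene of the RefSeq table. miR-351-5p has another seed, CCCUGAG, which it shares with the miR-125 genes among others, and it belongs here as a neighbour of Mir322 and Mir503. Outside the seed the arms diverge. miR-195a-5p and miR-16-5p were the closest pair, differing at 2 of 21 positions compared, whereas miR-497a-5p and miR-16-5p differed at 11 of 22.

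A read with more than 1 match in the genome is left out of the gene counts here, and such reads made up 46.4% of the reads of replicate 2 and 41.9% of those of replicate 1. This touches the pair Mir16-1 and Mir16-2 directly. Their hairpins, from the GENCODE M21 transcripts, share a stretch of 23 bases, given in capitals, that holds the whole of miR-16-5p.
Mir16-1, chr14:61631880-61631972, minus strand: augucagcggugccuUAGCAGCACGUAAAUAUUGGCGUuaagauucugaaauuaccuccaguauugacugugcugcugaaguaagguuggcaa
Mir16-2, chr3:69009902-69009996, plus strand: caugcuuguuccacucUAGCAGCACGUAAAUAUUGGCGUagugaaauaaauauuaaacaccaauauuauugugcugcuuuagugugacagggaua

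The exact miR-16-5p sequence occurs in 2 miRNA genes, so the counts of Mir16-1 and Mir16-2 leave out reads of that sequence. They are no measure of miR-16. Whether longer reads of that arm were counted was not examined. Each of the other 5′ arms of the 9 genes occurs in 1 miRNA gene, and the longest stretch that any of the other 7 hairpins shares with another miRNA locus is 16 bases, between Mir195a and Mir195b. The count of a hairpin pools both of its arms. Levels are read counts scaled to a gene total of 1000000 in each library (CPM) that are not divided by gene length. Reads that are PCR copies of 1 short RNA were not corrected for here. How readily a sequence is captured by the adapters was not corrected for.

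The libraries held 4266963 counts in miRNA genes in replicate 2 and 5481053 in replicate 1. A gene was called detected with at least 2 CPM in each library, which 433 genes reached. Neuron-enriched miRNA genes, a list of 13, had 10 detected members and summed to 82939 CPM in replicate 2 and 59265 CPM in replicate 1. Of all 13 genes, detected or not, 10 were higher in replicate 2 and 3 were lower. The lower ones were Mir132 (4038 and 17142 CPM in replicates 2 and 1), Mir138-1 (2590 and 6200 CPM) and Mir138-2 (894 and 2920 CPM). Not detected were Mir9-2, Mir124a-2 and Mir124a-3. These 3 are among the 10 higher ones, although Mir124a-3 had 4 counts in both libraries. The Mir9, Mir124a, Mir128 and Mir138 genes are numbered copies, and reads that match several places are left out. The list's sum and number detected are therefore no full measure of neuronal microRNA. Liver Mir122 was at 141 and 32.3 CPM. Of 5 striated muscle genes, 3 had no count, Mir1a-2 had 1 count in replicate 2, and Mir206 was at 38.0 and 26.8 CPM. The Mir1a and Mir133a genes are numbered copies too, so their low counts are no measure of muscle RNA. The libraries differed in other lists: all 8 genes of a proliferation list made of Mir17 and its relatives were higher in replicate 2, with sums of 26047 CPM in replicate 2 and 3411 CPM in replicate 1, and so were all 5 epithelial genes (5824 and 72.4 CPM). The 3 oligodendrocyte genes summed to 939 CPM in replicate 2 and 6503 CPM in replicate 1, with 2 lower and 1 higher in replicate 2, and the 3 endothelial and mural genes, all lower, to 12895 and 21958 CPM. The 3 microglia and immune genes summed to 521 CPM in replicate 2 and 1267 CPM in replicate 1, but 2 of them were higher in replicate 2 and only Mir150 was lower (397 and 1215 CPM). The 3 erythroid genes summed to 65.9 and 88.1 CPM, with Mir144 and Mir451a lower in replicate 2 and Mir486 higher (43.1 and 21.9 CPM). None of the genes in these lists, muscle apart, was at 0 in both libraries. Their part in the differences below was not tested. In bulk tissue, fewer cells of a type and less RNA per cell cannot be told apart.

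All 9 genes were detected in both libraries. Together they held 1.21% of the gene counts in replicate 2, with an exact 95% Clopper-Pearson interval of 1.20 to 1.22, against 1.25% in replicate 1 (1.24 to 1.26), or 1.23% ± 0.0279 (SD, n = 2). The sum hides large and opposite differences between members. At least 2-fold apart between the libraries were 5 of the 9, of which 4 were higher in replicate 2 and 1 was lower. With edgeR TMM or DESeq2 size factors 4 were, 3 higher and 1 lower, since Mir15a was then less than 2-fold apart. Among all 433 detected genes, 43.4% were at least 2-fold apart, 27.7% being higher in replicate 2 and 15.7% lower. With TMM the share was 40.6% and with DESeq2 size factors 41.3%. A difference of this size was therefore common in the tables. At 1.5-fold, 5 members (4 higher, 1 lower) and 63% of the detected genes (39.5% higher, 23.6% lower) were apart. At 4-fold, 2 members (1 higher, 1 lower) and 15.5% (10.4% higher, 5.08% lower) were. Of the detected genes with a mean of at least 50 CPM, which all 9 members reach, 47.4% were at least 2-fold apart. With 1 library on each side no test of a condition exists, and the intervals given with the folds cover counting error only.

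**Figure D1:**
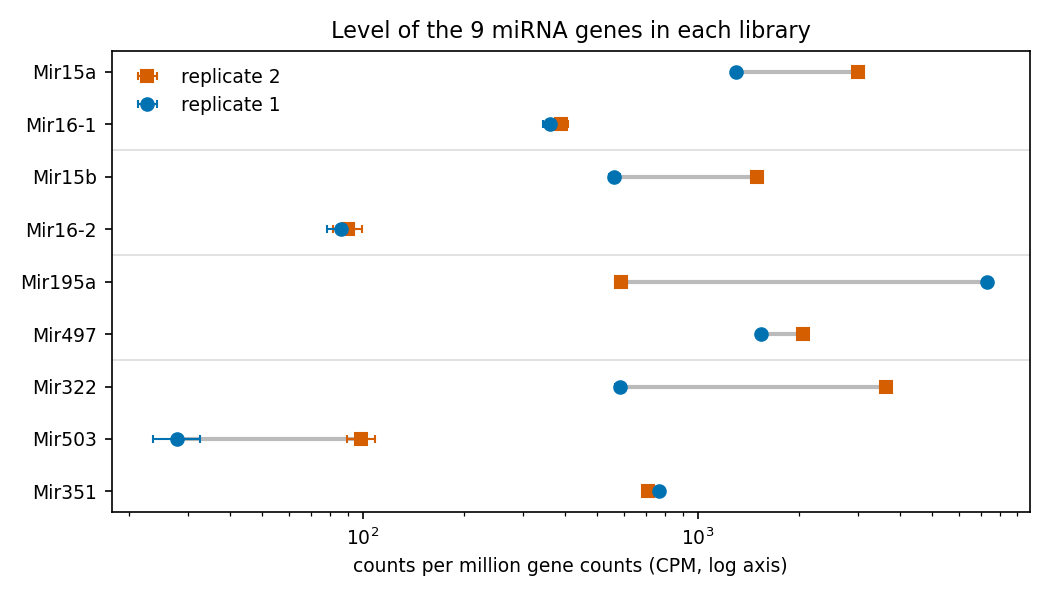
CPM of the 9 genes in replicate 2 (squares) and replicate 1 (circles) on a log axis, grouped by genomic cluster, with bars for exact 95% counting intervals and grey lines joining the libraries. Mir195a is 12.3-fold lower in replicate 2 and Mir322 6.23-fold higher, while the symbols of Mir16-1, Mir16-2 and Mir351 lie close together.

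The Mir195a and Mir497 cluster on chromosome 11 was lower in replicate 2, through Mir195a alone. Mir195a (ENSMUSG00000065411.2, mm10 chromosome 11 from 70235042 to 70235135, plus strand, in no other annotated gene) makes miR-195a, a cell cycle repressor. It was at 590 CPM in replicate 2, from 2518 counts, and at 7277 CPM in replicate 1, from 39887 counts, a mean of 3934 ± 4729 CPM (SD, n = 2). It was 12.3-fold lower in replicate 2 (95% interval 11.8 to 12.8). It ranked 130 of 2202 by level in replicate 2 and 32 in replicate 1. Its log2 ratio of -3.62 ranked 4 from the lowest among the 433 detected genes.

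Mir497 (ENSMUSG00000105220.1, chromosome 11 from 70234717 to 70234800, plus strand) lies 241 bases from Mir195a on the same strand and makes miR-497a with the same seed. It was at 2067 CPM in replicate 2 (8819 counts) and 1542 CPM in replicate 1 (8450 counts), 1.34-fold higher in replicate 2 (1.30 to 1.38). Its log2 ratio of 0.42 was 0.12 with TMM and 0.15 with DESeq2 size factors. Within a library, Mir195a counts were 0.286 times those of Mir497 in replicate 2 (0.273 to 0.298) and 4.72 times in replicate 1 (4.61 to 4.83). The order of the neighbours was turned round between the libraries. Mir497b, annotated on the opposite strand, covers Mir497, so the strand-specific count is needed to see Mir497 at all: without strand it has 0 counts in both libraries.

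The X chromosome cluster showed the opposite pattern. It lies on the minus strand, in the order Mir322, Mir503, Mir351, and none of the 3 is inside another annotated gene. Mir322 (ENSMUSG00000065418.1, chromosome X from 53054255 to 53054349), the mouse counterpart of human miR-424 and a repressor of Cdc25a in differentiating mouse muscle cells, was at 3656 CPM in replicate 2 (15601 counts) and 587 CPM in replicate 1 (3216 counts). It was 6.23-fold higher in replicate 2 (6.0 to 6.47), and its mean was 2121 ± 2170 CPM (SD, n = 2). Its log2 ratio was 2.64, and 23 of the 433 detected genes, itself included, were at or above it. Mir322 ranked 57 in replicate 2, above every other member, and 128 in replicate 1.

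The lowest member by mean level was Mir503 (ENSMUSG00000076122.1, chromosome X from 53053984 to 53054054), 200 bases from Mir322. It was at 98.7 CPM in replicate 2 (421 counts) and 27.9 CPM in replicate 1 (153 counts), 3.53-fold higher in replicate 2 (2.93 to 4.28). Mir351 (ENSMUSG00000065503.1, chromosome X from 53053255 to 53053353), 630 bases further on, did not share this difference. It was at 709 CPM in replicate 2 (3027 counts) and 764 CPM in replicate 1 (4185 counts), a ratio of 0.929 (0.886 to 0.974). Its log2 ratio of -0.11 was -0.40 with TMM and -0.38 with DESeq2 size factors. Mir322 counts were accordingly 5.15 times those of Mir351 in replicate 2 (4.96 to 5.36) and 0.768 times in replicate 1 (0.734 to 0.805).

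Other miRNA genes of the same strand continue the cluster. Mir542, 4767 bases from Mir322, was at 146 CPM in replicate 2 and 40.7 CPM in replicate 1, 3.59-fold higher in replicate 2 (3.07 to 4.20). Mir450b was at 9.61 and 2.37 CPM, from 41 and 13 counts in replicates 2 and 1, or 4.05-fold higher (2.13 to 8.24). Mir450-1 and Mir450-2 were not detected: Mir450-1 had 3 counts in replicate 2 against 0 in replicate 1, and Mir450-2 had 4 against 2. They share 25 bases with each other, so these counts are uncertain. All of the 7 genes together were 3.25-fold higher in replicate 2 (3.17 to 3.34), and Mir351 was the exception among the 5 detected ones.

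**Figure D2:**
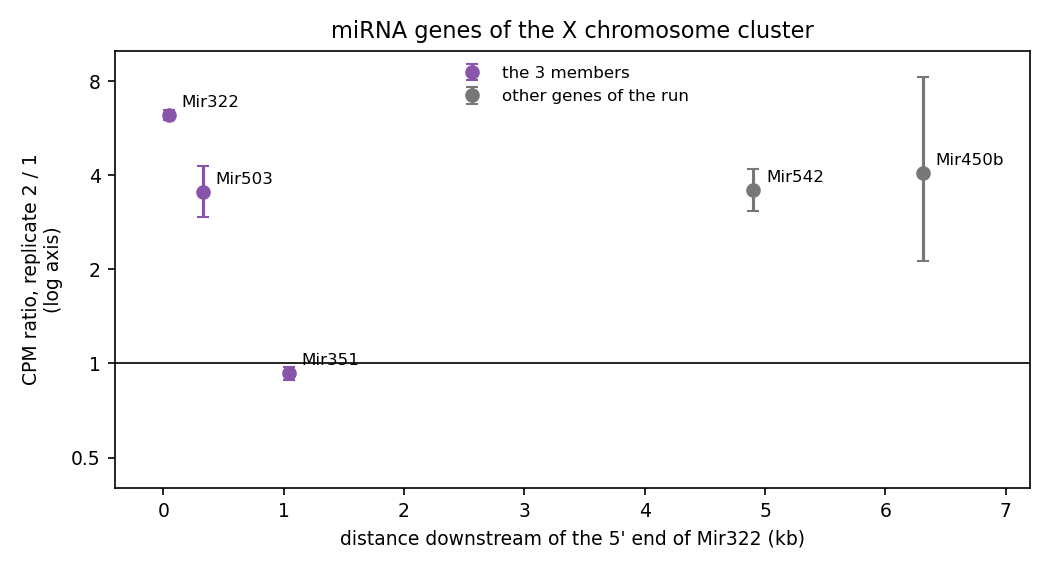
CPM ratio of replicate 2 over replicate 1 on a log axis for the 5 detected miRNA genes of the X chromosome cluster, against their distance downstream of the 5′ end of Mir322 in kb, with exact 95% counting intervals. The 3 members are purple and the other genes grey: 4 of the 5 genes lie between 3.53 and 6.23, and Mir351 lies just under the line of equal CPM.

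The autosomal pairs that give the family its name each held a member that differed and a member that did not pass the 2-fold limit. Mir15a (ENSMUSG00000093007.1, chromosome 14 from 61632027 to 61632110, minus strand, in an intron of the noncoding gene Dleu2) was at 3006 CPM in replicate 2 (12828 counts) and 1299 CPM in replicate 1 (7118 counts). It was 2.31-fold higher in replicate 2 (2.25 to 2.38), with a mean of 2153 ± 1208 CPM (SD, n = 2). Its log2 ratio of 1.21 was 0.91 with TMM and 0.94 with DESeq2 size factors, under the 2-fold limit. Its neighbour Mir16-1 (ENSMUSG00000092995.1, 54 bases away, overlapping an annotated exon of Dleu2) was at 390 CPM in replicate 2 (1664 counts) and 361 CPM in replicate 1 (1979 counts), a ratio of 1.08 (1.01 to 1.15).

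Mir15b (ENSMUSG00000065580.2, chromosome 3 from 69009772 to 69009835, plus strand) lies in an intron of Smc4, which encodes a subunit of the condensin complex that compacts chromosomes for division. It was at 1503 CPM in replicate 2 (6415 counts) and 564 CPM in replicate 1 (3089 counts), 2.67-fold higher in replicate 2 (2.56 to 2.79). Mir16-2 (ENSMUSG00000065606.1), 66 bases away in the same intron host, was at 90.0 CPM in replicate 2 (384 counts) and 85.7 CPM in replicate 1 (470 counts), a ratio of 1.05 (0.915 to 1.20). The intervals of Mir16-1 and Mir16-2 cover only what is left without reads of the exact miR-16-5p sequence. That Mir15a has 7.71 and 3.60 times the counts of Mir16-1 in replicates 2 and 1, and Mir15b 16.7 and 6.57 times those of Mir16-2, therefore says nothing of how much miR-16 there is.

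Ordered by mean level, the 9 genes ran Mir195a, Mir15a, Mir322, Mir497, Mir15b, Mir351, Mir16-1, Mir16-2 and Mir503. Mean levels went from 3934 CPM down to 63.3 CPM. In replicate 2 alone the order began with Mir322, Mir15a and Mir497, and in replicate 1 with Mir195a, Mir497 and Mir15a. Mir195a stood above the others in replicate 1, whereas 5 of the other members were above it in replicate 2. The mean order of Mir195a, Mir15a, Mir322 and Mir497 is within their spread, since the larger SD of each neighbouring pair exceeds the gap between them. Between Mir195a and Mir15a only the SD of Mir195a does so.

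**Figure D3:**
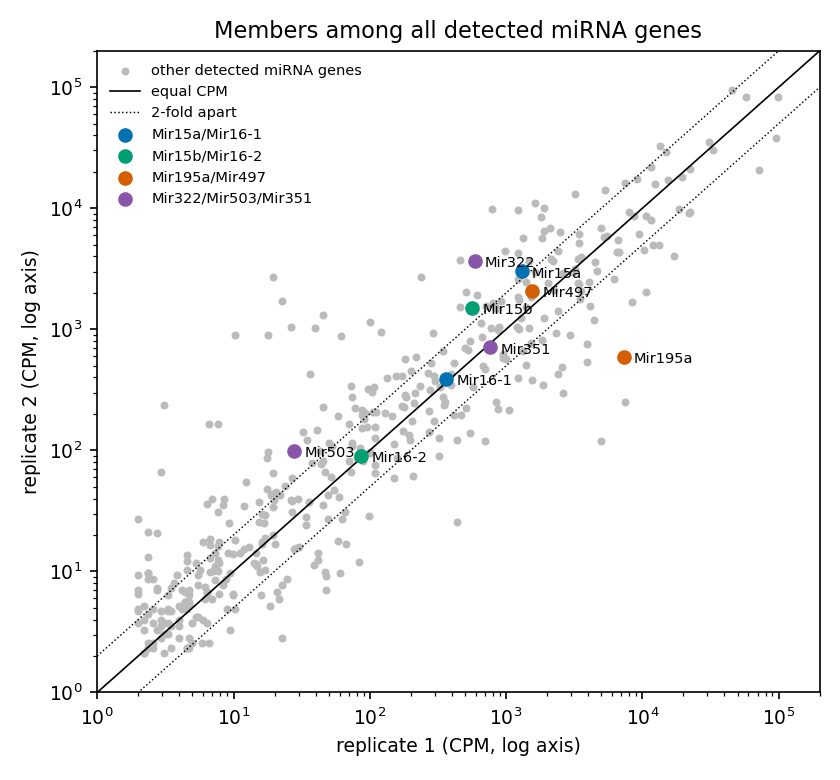
CPM in replicate 2 against replicate 1 on log axes for the 433 detected miRNA genes, with the 9 members coloured by cluster, the solid line at equal CPM and dotted lines at 2-fold. Mir322, Mir503, Mir15b and Mir15a lie above the upper dotted line and Mir195a below the lower one.

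Grouped by the seed of the 5′ arm, the gene counts differed in make-up more than in amount. The grouping was chosen after the values were seen. The 7 genes with seed AGCAGCA summed to 11303 CPM in replicate 2 and 11715 CPM in replicate 1, a ratio of 0.965 (0.953 to 0.976). Scaled by edgeR TMM, by DESeq2 size factors or by all reads, that ratio was 0.784, 0.798 or 0.850. Mir195a supplied 5.22% of the counts of these 7 genes in replicate 2 (5.02 to 5.42) and 62.1% in replicate 1 (61.7 to 62.5). Mir322 supplied 32.3% (31.9 to 32.8) and 5.01% (4.84 to 5.18). Mir15a supplied 26.6% and 11.1%, Mir15b 13.3% and 4.81%, and Mir497 18.3% and 13.2% of these counts in replicates 2 and 1. Without Mir195a the other 6 genes were 2.41-fold higher in replicate 2 (2.38 to 2.45). These sums leave out reads of the exact miR-16-5p sequence. They also pool both arms of each hairpin, and the 3′ arms have other seeds. The amount and make-up of microRNA with seed AGCAGCA were therefore not measured.

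**Figure D4:**
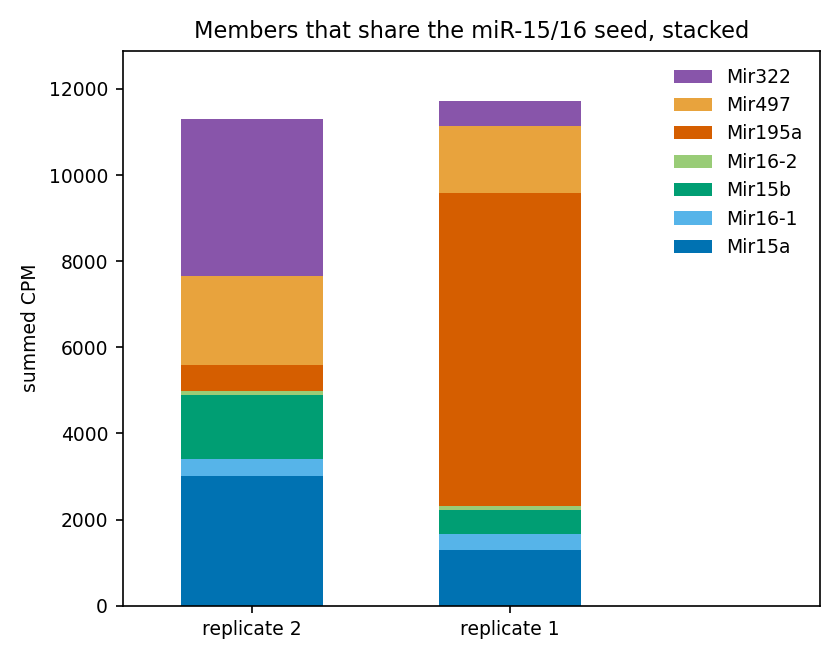
Stacked CPM of the 7 genes with seed AGCAGCA in replicate 2 (left) and replicate 1 (right), from 0. The bars reach 11303 and 11715 CPM, and Mir195a, the largest block on the right, is among the small ones on the left, where Mir322 is the largest.

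By cluster, Mir322, Mir503 and Mir351 together were 3.24-fold higher in replicate 2 (3.15 to 3.33), Mir15b with Mir16-2 2.45-fold higher (2.36 to 2.56) and Mir15a with Mir16-1 2.05-fold higher (1.99 to 2.10). Mir195a with Mir497 was 3.32-fold lower (3.25 to 3.39). The median log2 ratio was 0.42 over the 9 members and 0.27 over all detected genes. TMM and DESeq2 size factors move the latter by -0.29 and -0.27, and all reads by -0.18. Under each of these 3 scalings the small differences of Mir16-1 and Mir16-2 change sign, and the sum of Mir15a with Mir16-1 falls under 2-fold.

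Beyond the 9 genes, a list of 13 relatives was counted, of which 5 were detected. Among the further genes with the family's seed, Mir6342, Mir6353 and Mir6419 had no count in either library, which allows up to 0.703 CPM in replicate 2 and 0.547 CPM in replicate 1. Mir195b had 1 count in replicate 2 and 0 in replicate 1, and Mir1907, also on the list, had 5 and 1. Among genes with the seed of miR-351, Mir125a and Mir125b-1 were above Mir351 in both libraries. Mir125a was at 18000 CPM in replicate 2 and 19548 CPM in replicate 1, a ratio of 0.921 (0.912 to 0.929). Mir125b-1 was at 5700 and 1321 CPM, 4.32-fold higher in replicate 2 (4.20 to 4.43), and Mir125b-2 at 694 and 498 CPM, 1.39-fold higher (1.32 to 1.47). The pair share 24 bases that hold miR-125b-5p, so their counts leave out reads of that exact sequence.

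For the highest member of each cluster, the 2 detected genes nearest in log2(CPM + 1) over the 2 libraries were found. For Mir15a these were Mir760 (3177 CPM in replicate 2 and 1357 CPM in replicate 1) and Mir431 (2580 and 1230 CPM). For Mir15b they were Mir134 (1532 and 459 CPM) and Mir28a (1560 and 717 CPM). For Mir322 they were Mir106b of the Mir17 relatives (3761 and 462 CPM) and Mir708 (4401 and 986 CPM). For Mir195a the nearest were Mir668 (533 and 3926 CPM) and Mir874 (751 and 3890 CPM), at Euclidean distances of 0.90 and 0.97 on the log2 scale. The distances of the genes named for the other members ran from 0.10 for Mir760 to 0.79 for Mir708. Likeness over 2 libraries describes level and ratio only.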

How the data were processed

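Short RNA was sequenced from the hippocampus, 1 library for each of 2 biological replicates of 1 group. The deposited tables give whole-number read counts per miRNA gene with no header, and, per the accompanying deposited text, used mm10 and GENCODE M21. What trimmed, aligned and counted the reads is not given in the sources used here. Of 3 value columns, which no source names, the one read as the gene's own strand was used, with 4266963 gene counts in replicate 2 and 5481053 in replicate 1, against 253077 and 419060 in the other strand's column. The 4 rows that name no gene stayed out of library sizes: reads with several places (46.4% of replicate 2 and 41.9% of replicate 1), unmapped reads (17.2% and 17.1%), reads outside miRNA genes (5.17% and 5.56%) and reads in more than 1 gene.

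CPM were computed here over all gene rows, and a log2 ratio sets replicate 2 over replicate 1 after adding 1 CPM to each. Folds are plain CPM ratios with exact 95% binomial intervals given both totals, which cover counting error only since PCR copies are not independent. A count of 0 allows up to 3 counts. With 1 group there is no comparison of conditions, so no p-value is given; spread between these samples may be technical. Called means at least 2-fold apart. All 2202 identifiers matched GENCODE M21. Shared stretches were sought on both strands among miRNA hairpins only. All 9 members are named; relatives and marker lists are reported by list, and the nearest 2 genes to each cluster's highest member by Euclidean distance. The members and lists were chosen with earlier results of these data known. Alternatives used edgeR 4.0.16 (TMM) and DESeq2 1.42.0 (size factors), and the rest scipy 1.17.1 and pandas 2.3.3. The ratio intervals were tried on simulated Poisson counts only. That setting has no PCR copies or spread between libraries, so it cannot show how the intervals behave under either.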

Additional observations from a re-analysis of the deposited data

Results flagged for a closer look

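Counts appeared in a column that the comparisons do not use. Mir497b, annotated from 70234692 to 70234816 on the minus strand of chromosome 11, had 8819 counts in replicate 2 and 8450 counts in replicate 1 on the strand opposite to its own, above the limit of 3 counts that a count of 0 allows. These equal the counts of Mir497 on its own strand in both libraries, and Mir497b had 0 counts on its own strand.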

How the results depend on the processing

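All 9 members were detected under the detection cutoffs, the all-reads scaling and the single libraries tried. The members' mean share of 1.23% was 1.13% without strand, where Mir497 drops out, 1.15% with both strand columns summed, since the total also grows, and 1.18% over the 7 members without a stretch of 22 bases at another locus. With either replicate left out it was between 1.21% and 1.25%. At least 2-fold apart were 5 members and 43.4% of the detected genes. With TMM, DESeq2 size factors and all reads there were 4, 4 and 5 members, beside 40.6%, 41.3% and 41.1% of the detected genes. At 1.5-fold there were 5 members beside 63%, and at 4-fold the stricter limit left 2 beside 15.5%. Of 62 alternative log2 ratios, 56 kept their sign; the 6 that did not were those of Mir16-1 and Mir16-2 under the 3 other scalings, between -0.23 and -0.07, and neither gene was 2-fold apart. The ratio of the summed CPM of the genes with seed AGCAGCA, added after seeing the data, was 0.965. It became 0.784, 0.798 and 0.850 with TMM, DESeq2 size factors and all reads, 0.961 without Mir16-1 and Mir16-2, and 2.41 without Mir195a, which decides it. No paired analysis was possible because there is 1 group. Depth limits the relatives with few or no counts (Mir450-1, Mir450-2, Mir450b, Mir1907, Mir195b, Mir6342, Mir6353 and Mir6419), and each value rests on 2 libraries.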
